A study of Bos taurus with 14 samples.

Results

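The miR-30 family is a group of related miRNA that share the start of their 5p sequence, the seed by which a miRNA recognizes its targets. In the milk sEVs of cows with subclinical mastitis the family was represented by 7 mature miRNA out of 268 mature names, or 7 of the 350 miRNA/precursor pairs of the table. They were chosen by name alone, as every line called miR-30 with a letter from a to f, with or without an arm. These were bta-miR-30a-5p, bta-miR-30b-5p, bta-miR-30b-3p, bta-miR-30c, bta-miR-30d, bta-miR-30e-5p and bta-miR-30f (below without the species prefix), and all 7 had counts in at least 1 cow.

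The sEVs came from 14 lactating Holstein cows with positive or weakly positive mastitis tests and no udder signs, which were all fed the same total mixed ration. The 7 cows of the control group received no supplement, and the 7 cows of the inulin group received 300 g/d of inulin, a plant fibre used as a prebiotic, for 5 wk after 1 wk of adaptation. Each library was made from the milk of 1 cow, pooled over the milkings of the last day. Vesicles in milk can come from several kinds of cell, and fewer vesicles from a cell type cannot be told apart from less miRNA per vesicle.

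A miRNA precursor is a hairpin whose arms are called 5p and 3p, and usually one of them is kept as the mature strand. Members of the miR-30 family are known as abundant miRNA of epithelial cells, and miR-30d belongs to the miRNA often found in milk. Targets described for the family include SNAI1, a repressor of epithelial genes, and BECN1, a protein of autophagy. The 5p members differ from each other by few bases, so reads with a mismatch can be assigned to a relative, and the mismatch setting of the counting is not given in the sources used here. The 7 members had 7 different sets of counts, so none was a copy of another. The mature lengths listed are 24 nt for miR-30a-5p, miR-30d, miR-30e-5p and miR-30f, 23 nt for miR-30c, 22 nt for miR-30b-5p and 21 nt for miR-30b-3p.

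By name, all 6 precursors were found in the RefSeq gene table (assembly ARS-UCD2.0), where they formed 3 neighbouring couples, mir-30a with mir-30f, mir-30d with mir-30b, and mir-30e with mir-30c. The precursors mir-30c and mir-30e lie within NFYC, the gene of a subunit of the transcription factor NF-Y. In each couple 1 partner held nearly all the counts. Over all cows miR-30a-5p had 6301 counts and miR-30f had 114, miR-30d had 4581 and the mir-30b arms together 172, and miR-30e-5p had 552 and miR-30c 53.

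The total miRNA count of a cow ranged from 4165 in control cow 2 to 415020 in control cow 5, and 3 counts corresponded to 720.3 and 7.23 CPM (counts per 1000000 counts of the cow) at these depths. Control cow 5 held 24.9% of all miRNA counts but 51.7% of the miR-30 counts, so results are given with and without this cow. It was thus picked by the values under study, and a p-value without it describes its weight and is no test of the diet. Of 6 miRNA known from mammary epithelium, 6 were present, with a summed level from 3601 to 15527 CPM in the control group and from 6019 to 10457 CPM in the inulin group. Of 7 miRNA known from leukocytes 6 were present, from 0 to 860.2 CPM in the control group and from 45.4 to 486.0 CPM in the inulin group. Of 3 miRNA of red blood cells miR-486 was present, with 5 counts in all, too few to be fitted. The markers miR-146a, miR-144 and miR-451 were not found by name among the 350 miRNA/precursor pairs. Between the diets edgeR called 0 of the 6 epithelial miRNA and 1 of the 5 leukocyte miRNA with enough counts. Of all 210 tested pairs, 9.05% were called. The called leukocyte miRNA was miR-142-5p, lower with inulin (edgeR, adjusted p = 0.274). It had 32 counts in 2 cows, and a median of 0 CPM in both groups. Control cow 5 had the highest epithelial sum, 15527 CPM against 8232 CPM in the next control cow, and the highest leukocyte sum, 860.2 against 496.3 CPM. The part of these cell types in the miR-30 levels was not tested. In control cow 5 the 6 other miRNA often found in milk, named below, summed to 33933 CPM, against 13780 CPM in the next control cow. High levels in this cow were thus not particular to the miR-30 members.

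Summed over the 7 members, the mean miR-30 share of the miRNA counts was 0.507% ± 0.442 (SD, n = 7) without inulin. With inulin it was 0.514% ± 0.0749 (SD, n = 7). Control cows lay between 0.144% and 1.47% (median 0.385%), inulin cows between 0.384% and 0.603% (median 0.524%). The lowest share, in control cow 2, was 6 counts (95% Wilson interval 0.066% to 0.314%). The inulin cows lay close together, whereas the control cows spread on both sides of them. Control cow 5 was far above every other cow at 1.47%, with a lower 95% Wilson bound of 1.43%, and the next control cow reached 0.493%. Without control cow 5 the control mean was 0.347% ± 0.137 (SD, n = 6). A mature miRNA listed with several precursors enters the total once for each of them. With 1 precursor per mature miRNA the mean shares were 0.835% for control and 0.867% for inulin. A sum over chosen members was not tested between groups.

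**Figure D1:**
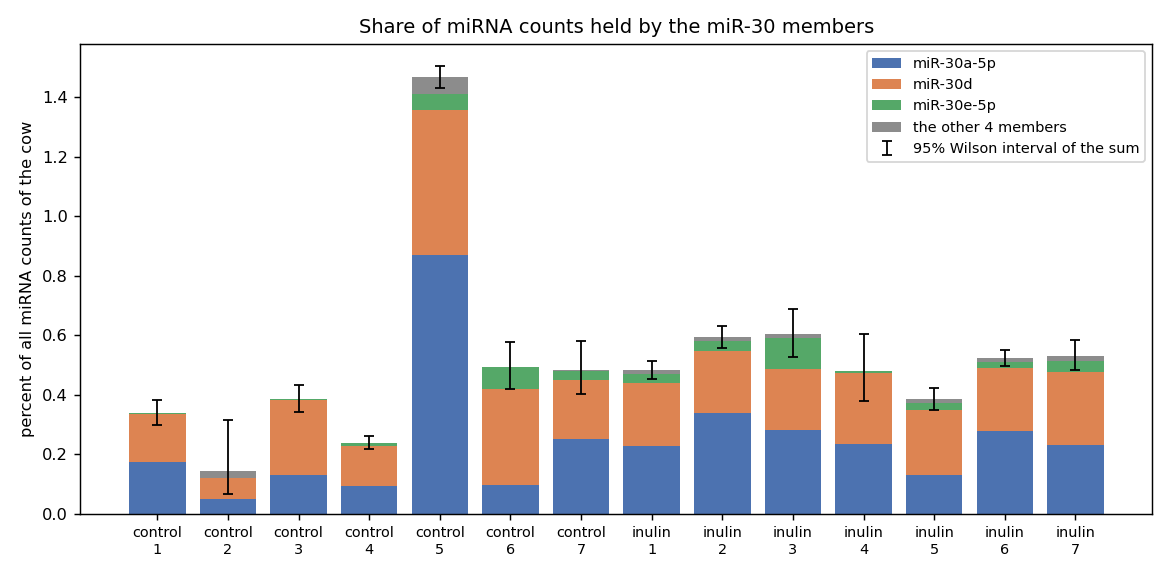
Percent of all miRNA counts held by the miR-30 members in each of the 14 cows (bars, stacked by member), with the 95% Wilson interval of the sum. Control cow 5 reaches 1.47%, the inulin cows lie between 0.384% and 0.603%, and in every cow miR-30a-5p and miR-30d make up most of the bar.

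Nearly all of this share was miR-30a-5p and miR-30d. Pooled over the cows they held 92.4% of the miR-30 counts, and 92.5% without control cow 5. In single cows their part ranged from 80.6% in inulin cow 3 to 99.3% in control cow 3. When each mature miRNA was counted with 1 precursor, miR-30a-5p ranked from 11 to 29 and miR-30d from 13 to 27 among all miRNA of a cow. Both were thus among the more abundant miRNA of these vesicles. The third was miR-30e-5p with 4.69% of the pooled counts, and the other 4 members held from 0.450% to 0.968%. These pooled shares lean on control cow 5, and without it miR-30b-3p held 1.30%, miR-30b-5p 0.405%, miR-30f 0.194% and miR-30c 0.0880%.

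The order of the members was compared within each cow for all 21 couples of members, as the log2 ratio of their counts with 0.5 added, by exact permutation of the signs over the 14 cows. Of these, 16 had an adjusted p under 0.05, with Benjamini-Hochberg adjustment over the 21. The smallest p that the 16384 sign changes allow is 0.000122, and it is higher for couples with equal counts in some cows. The levels of miR-30a-5p and miR-30d did not differ beyond the spread between cows, with a mean log2 ratio of -0.11 ± 0.702 (SD, n = 14; exact permutation p = 0.572, adjusted p = 0.572). Both were above miR-30e-5p in 14 of 14 cows, and the step from miR-30d to miR-30e-5p was 3.28 ± 1.31 on the log2 scale (SD, n = 14; exact permutation p = 0.000122, adjusted p = 0.000256). The members are ordered here by their pooled counts, in which miR-30f stood next after miR-30e-5p through control cow 5. Without this cow it had 11 counts, against 74 of miR-30b-3p and 23 of miR-30b-5p. The step from miR-30e-5p to miR-30f was 3.62 ± 2.18 on the log2 scale (SD, n = 14; exact permutation p = 0.000244, adjusted p = 0.000394). Only 5 cows had counts of miR-30f, so in the others the size of this step depended on the added 0.5 and on depth. Within cows miR-30f was on average below miR-30b-3p, with a mean log2 ratio of -0.96, and below miR-30b-5p, with -0.32. Neither these nor miR-30b-3p and miR-30b-5p differed beyond their spread, with adjusted p of 0.222, 0.572 and 0.273 (exact permutation). The last step, from miR-30b-5p to miR-30c, had an adjusted p of 0.0410 (exact permutation), with 6 cows higher for miR-30b-5p and 8 cows at equal counts.

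**Figure D2:**
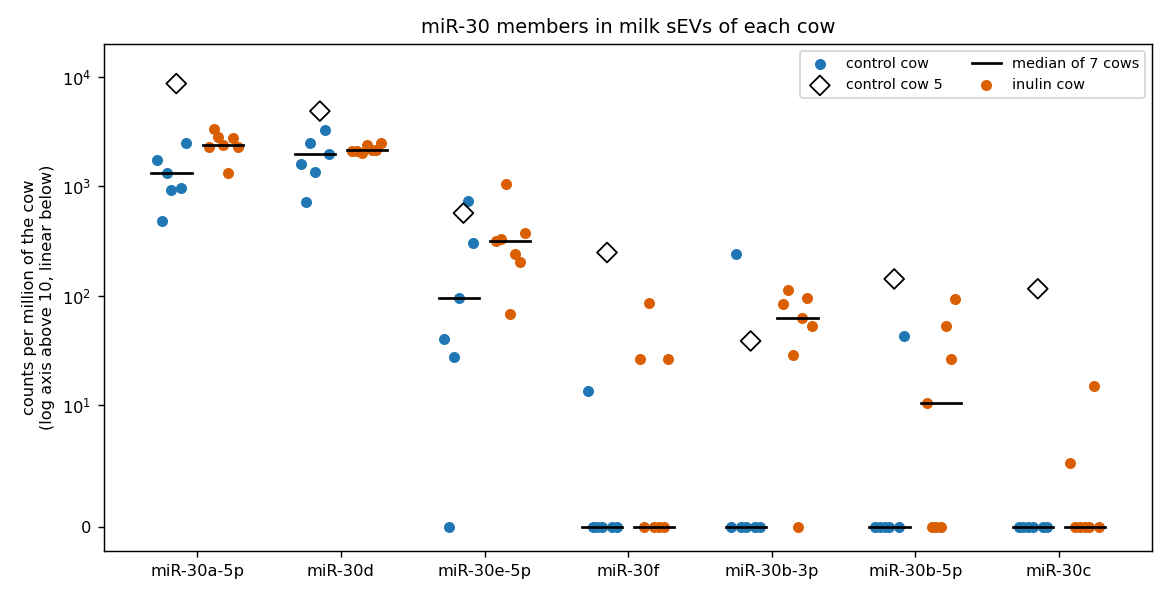
Level of each miR-30 member in each cow, in CPM on an axis that is logarithmic above 10 and linear below, with points for the 7 control and 7 inulin cows, a diamond for control cow 5 and a line at the group median. The members miR-30a-5p and miR-30d are detected in all 14 cows, miR-30e-5p lies lower, and the other 4 members are at 0 in many cows.

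The level of miR-30a-5p in the control group was lowest at 480.2 CPM in control cow 2, which was 2 counts (95% Wilson interval 132 to 1749 CPM). The control median was 1314 CPM, and the level reached 8694 CPM in control cow 5. In the inulin group it ranged from 1319 to 3374 CPM with a median of 2361 CPM. All 7 inulin cows were above the control median, and the groups overlapped. The group means were close, 2374 ± 2862 CPM (SD, n = 7) for control and 2461 ± 638 CPM (SD, n = 7) for inulin. Control cow 5 alone held 57.3% of all miR-30a-5p counts. In edgeR the log2 fold change of inulin over control was 0.03, with a standard error (SE) of 0.583, a 95% interval from -1.18 to 1.24 and an adjusted p of 0.987. Without control cow 5 the control mean was 1321 ± 716 CPM (SD, n = 6) and 3 of the 7 inulin cows were above every remaining control cow. The log2 fold change in edgeR was then 1.06 (SE 0.465, unadjusted p = 0.0346, adjusted p = 0.465). This passes the calling rule of an unadjusted P < 0.05 and |log2FC| > 1, but not adjustment. As the cow left out had the highest miR-30a-5p level, this fit is no test of the diet.

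The level of miR-30d ranged from 720.3 to 4867 CPM in the control group with a median of 1987 CPM. In the inulin group it ranged from 2030 to 2463 CPM with a median of 2130 CPM. The lowest control value was 3 counts in control cow 2 (95% Wilson interval 245 to 2116 CPM). The inulin cows were all within the range of the control cows, and their standard deviation of 156 CPM was below the 1384 CPM of the control group. The highest values belonged to control cows 5 and 6, at 4867 and 3242 CPM. In edgeR the log2 fold change was -0.05 (SE 0.468, 95% interval -1.02 to 0.92, adjusted p = 0.985), and 0.30 without control cow 5 (adjusted p = 0.949). No difference in miR-30d was thus detectable in either fit, with an interval about a log2 unit wide on each side.

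The third member, miR-30e-5p, was more variable. In the control group it ranged from 0 in control cow 2, where a count of 0 allows up to 720.3 CPM, through a median of 95.9 CPM to 727.9 CPM in control cow 6. In the inulin group it ranged from 67.5 CPM, a single count in inulin cow 4, through a median of 315.9 CPM to 1058 CPM in inulin cow 3. The groups overlapped almost fully, although 6 of 7 inulin cows were above the control median. With edgeR its log2 fold change was 0.53 (SE 0.804, adjusted p = 0.985). Inulin cow 3 stood out among the inulin cows, with 37 counts of miR-30e-5p (95% Wilson interval 768 to 1458 CPM) against 372.8 CPM in the next cow, and there the member made up 17.5% of the miR-30 counts.

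Within a cow the ratio of miR-30a-5p to miR-30d does not depend on how the cow was scaled. As a part of the sum of both, miR-30a-5p ranged from 22.8% (95% Wilson interval 16.4 to 30.9) in control cow 6 to 64.1% (95% Wilson interval 62.8 to 65.4) in control cow 5. These intervals do not overlap, so the balance of the leading members differed between cows by more than counting error. In the inulin group the part ranged from 37.8% in inulin cow 5 to 61.5% in inulin cow 2. The mean log2 ratio was -0.34 ± 0.857 (SD, n = 7) for control and 0.12 ± 0.458 (SD, n = 7) for inulin. The difference of 0.46 was within the spread between cows (two-sided exact permutation test, p = 0.237). The smallest p that the 3432 assignments of the cows allow is 0.000583. Without control cow 5 the difference was 0.66 (exact permutation test, p = 0.0752).

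**Figure D3:**
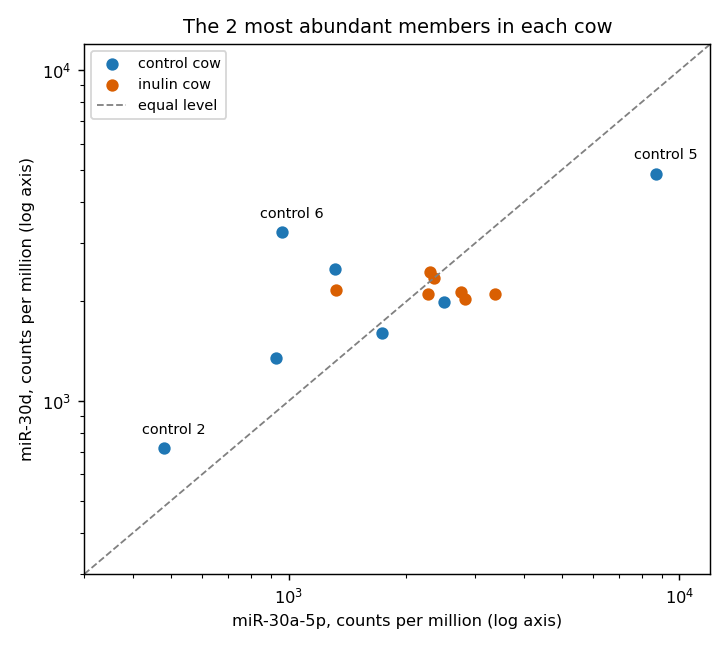
Level of miR-30d against that of miR-30a-5p in each of the 14 cows, in CPM on logarithmic axes, with a dashed line where both are equal. The inulin cows form a narrow band in miR-30d from 2030 to 2463 CPM, while control cow 2 lies at the lower end, control cow 5 at the upper end and control cow 6 farthest above the line. Control cow 2 had 2 counts of miR-30a-5p and 3 of miR-30d.

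Co-variation was examined for the 3 members with counts in at least 12 cows, in log2 CPM with TMM scaling. For miR-30a-5p and miR-30d, Pearson's r was 0.728 (permutation p = 0.00722, adjusted p = 0.0217 over 3 couples) but Spearman's rho was 0.314 (permutation p = 0.275, adjusted p = 0.275; n = 14 cows). Without control cows 2 and 5, the farthest from the median level of miR-30a-5p, r was 0.07. With this scaling the relation thus rested on those cows, the shallowest and the deepest library. Leaving out the farthest cows also narrows the range of levels. Among control cows r was 0.770 (n = 7, exact permutation p = 0.0637), and -0.88 without the 2 farthest cows. Among inulin cows r was 0.339 (n = 7, exact permutation p = 0.447), and 0.689 without the 2 farthest cows. The values of r without the 2 farthest cows of a group rest on few cows and were not tested.

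For the couples with miR-30e-5p r also fell without control cows 2 and 5, but here rho was close to r. For miR-30a-5p and miR-30e-5p r was 0.556 (permutation p = 0.0398, adjusted p = 0.0398) and rho 0.516 (permutation p = 0.0614, adjusted p = 0.0921; n = 14 cows), and r fell to 0.188 without control cows 2 and 5. For miR-30d and miR-30e-5p r was 0.597 (permutation p = 0.0240, adjusted p = 0.0360) and rho 0.530 (permutation p = 0.0536, adjusted p = 0.0921; n = 14 cows), and r fell to 0.153 without these cows. Within the control group the r of these couples was 0.557 and 0.741 (exact permutation p = 0.185 and 0.0496, adjusted p = 0.185 and 0.0955, n = 7), and within the inulin group 0.184 and -0.28 (exact permutation p = 0.735 and 0.548, n = 7). No couple had an adjusted p under 0.05 within a group.

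The levels were also compared with depth. Against the log10 of the total count r was 0.703 for miR-30a-5p (permutation p = 0.00565, adjusted p = 0.00847; rho 0.596, permutation p = 0.0276, adjusted p = 0.0489), 0.748 for miR-30d (permutation p = 0.00231, adjusted p = 0.00693; rho 0.578, permutation p = 0.0326, adjusted p = 0.0489) and 0.517 for miR-30e-5p (permutation p = 0.0570, adjusted p = 0.0570; rho 0.411, permutation p = 0.146, adjusted p = 0.146), over 14 cows. Without control cows 2 and 5 these r were 0.370, 0.375 and 0.0707. Leaving out control cow 5 alone gave 0.631, 0.694 and 0.452. Among control cows r was 0.785, 0.824 and 0.542 (n = 7, exact permutation p = 0.0444, 0.0290 and 0.204), and among inulin cows 0.414, 0.579 and 0.341 (exact permutation p = 0.352, 0.164 and 0.445, n = 7). Without the 2 cows of each group farthest from the median, r was 0.0997, 0.0689 and -0.53 among control cows and 0.775, 0.626 and 0.0437 among inulin cows. These rest on few cows and were not tested. No within-group p over all 7 cows was under 0.05 after adjustment over the 3 members (smallest adjusted p = 0.0667, exact permutation).

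Of 29 other miRNA with counts in all 14 cows, the 5 whose level ran most like the summed miR-30 level were let-7g, let-7a-5p, let-7f, let-7e and let-7b. Their Spearman's rho with the miR-30 sum was 0.864, 0.859, 0.754, 0.741 and 0.727 over 14 cows. Not all let-7 miRNA ran so closely, with a rho of 0.582 for let-7d, 0.477 for let-7i and -0.042 for let-7c. These are descriptions, since all levels of a cow share its library and its total. Without control cow 5 the same 5 remained the first 5, with rho from 0.692 to 0.896. At the other end stood miR-1246, a short sequence that is also read from fragments of other small RNA, with a rho of -0.93. It held a median of 71503 CPM in the control cows and 17722 CPM in the inulin cows. In edgeR the log2 fold change of miR-1246 was -1.46 (SE 0.989, unadjusted p = 0.154, adjusted p = 0.898), and it was not called.

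The remaining members were sparse, and for miR-30c and miR-30f most of their counts came from control cow 5. For miR-30f this cow held 103 of 114 counts, or 248.2 CPM (95% Wilson interval 205 to 301). The other cows with counts were control cow 1 with 1 count, inulin cow 1 with 5, inulin cow 3 with 3 and inulin cow 7 with 2. Inulin cow 6, the second deepest library, had 0 counts of 265214, which allows up to 11.3 CPM, below the interval of control cow 5. In edgeR the log2 fold change was -1.56 (SE 1.39, adjusted p = 0.914), and it turned to 1.95 without control cow 5 (adjusted p = 0.800).

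For miR-30c control cow 5 held 48 of 53 counts, or 115.7 CPM (95% Wilson interval 87.2 to 153). The only other counts were 4 in inulin cow 6 and 1 in inulin cow 1, and the other 6 control cows had 0. Apart from 1 cow, then, miR-30c was at or near the limit of detection in both groups. In edgeR the log2 fold change was -2.17 (SE 1.33, adjusted p = 0.831). It was 0.13 with DESeq2 (SE 3.05), -0.99 with limma-voom (SE 0.926) and -0.42 with the cow number as a block (SE 3.47). With so few counts outside 1 cow, the direction of the fold change was not settled. Without inulin cow 6 it was -3.24 and passed the calling rule (edgeR, unadjusted p = 0.0410, adjusted p = 0.412; 10.6% of 207 pairs called). That cow held 4 of the 5 counts of the inulin group, so this fit is no test of the diet. Without control cow 5 the 5 counts left were under the minimum for a fit.

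The precursor mir-30b was the only miR-30 precursor with both arms in the table, as were 16 of all 304 precursors. By name 5p is the arm that carries the family seed, while the 3p arm has another sequence. Over all cows miR-30b-3p had 90 counts and miR-30b-5p had 82, so the 3p arm made up 52.3% of them (95% Wilson interval 44.9 to 59.7). This balance was a mixture of unlike cows.

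In control cow 5 the 5p arm prevailed, with 59 counts against 16, and the 3p arm made up 21.3% (95% Wilson interval 13.6 to 31.9). In the inulin cows with more than 5 counts the 3p arm had 16 of 18 counts in cow 1, 20 of 20 in cow 2, 7 of 13 in cow 5, 25 of 32 in cow 6 and 4 of 11 in cow 7. It was thus the larger part in 4 of these 5 cows. Pooled over the inulin group it made up 76.8% (95% Wilson interval 67.4 to 84.2), an interval that covers counting error only and not the spread between cows. The interval of inulin cow 2, 83.9% to 100%, lay above that of inulin cow 7, 15.2% to 64.6%. Outside control cow 5 the control group had 1 count of each arm, so arm use cannot be compared between the groups.

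**Figure D4:**
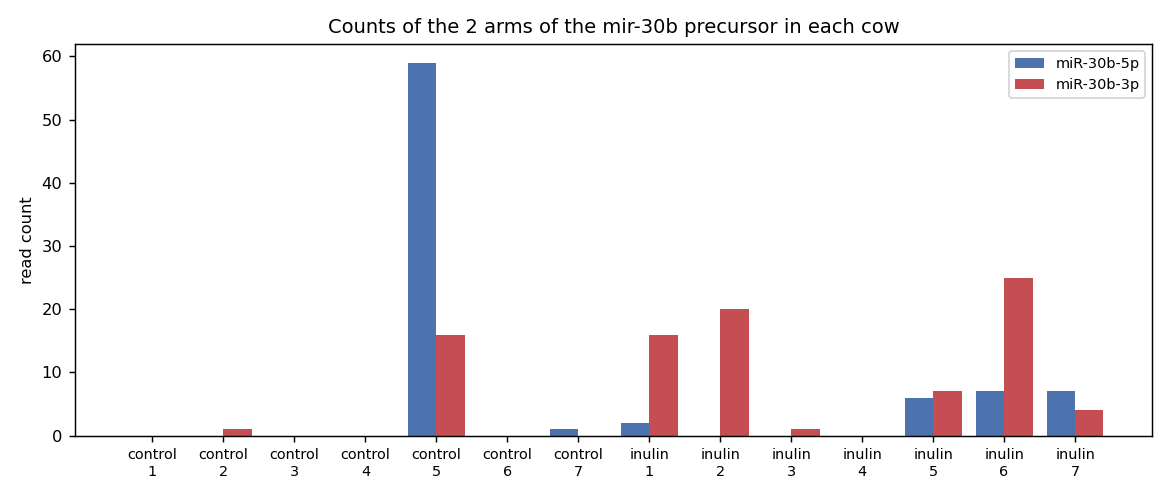
Read counts of miR-30b-5p and miR-30b-3p in each of the 14 cows. Control cow 5 has 59 counts of the 5p arm and 16 of the 3p arm, inulin cows 1, 2 and 6 have 16, 20 and 25 counts of the 3p arm, and the other 6 control cows have at most 1 count of either arm.

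The 3p arm had the highest fitted fold change of inulin over control among the members. It had counts in 6 of 7 inulin cows, with a median of 62.0 CPM and a maximum of 113.6 CPM, and in 2 of 7 control cows. Those were control cow 5, with 38.6 CPM, and control cow 2, where a single count corresponded to 240.1 CPM (95% Wilson interval 42.4 to 1359). Control cow 4 had 0 of 177212 counts, which allows up to 16.9 CPM, and inulin cow 1 at a similar depth had 16 counts, or 84.2 CPM (95% Wilson interval 51.9 to 137). In edgeR the log2 fold change was 2.08 (SE 1.28, 95% interval -0.58 to 4.74, unadjusted p = 0.119, adjusted p = 0.831), which does not pass the calling rule. Without control cow 2 edgeR gave 2.93 (unadjusted p = 0.0166, adjusted p = 0.388; 7.14% of pairs called), and without control cow 5 it gave 3.50 (unadjusted p = 0.0389, adjusted p = 0.487). Both passed the rule but not adjustment. The cows left out were the only control cows with counts of this arm, so these fits are no test of the diet. Limma-voom on all cows gave 1.94 (unadjusted p = 0.0476, adjusted p = 0.667; 6.67% of pairs called).

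The arms were not tested against each other. The counts of miR-30b-5p were 59 in control cow 5, 1 in control cow 7 and between 2 and 7 in 4 inulin cows. The level was highest in control cow 5 at 142.2 CPM (95% Wilson interval 110 to 183), and inulin cow 7 followed with 93.2 CPM (95% Wilson interval 45.2 to 192), so these could not be told apart at this depth. With edgeR its log2 fold change was -0.29 (SE 1.24, adjusted p = 0.985), and it turned to 2.43 without control cow 5 (adjusted p = 0.665), where the 5p arm had counts in 4 of 7 inulin and 1 of 6 control cows.

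Over the family, edgeR called 0 of 7 members by the rule, where 9.05% of the 210 tested pairs were called, and 0 of 7 had an unadjusted p under 0.05. DESeq2 called 0 of 7 as well, against 4.29% of the same pairs. No pair of the table had an adjusted p under 0.05 with either tool, while 19 pairs in edgeR and 10 in DESeq2 had an unadjusted p under 0.05. The median log2 fold change was -0.05 over the 7 members and -0.40 over all 210 pairs. Without control cow 5, edgeR called 2 of the 6 members that could be fitted, miR-30a-5p and miR-30b-3p, both higher with inulin. There 9.04% of 188 pairs were called, and 4.79% in that direction. Control cow 5 was left out for its miR-30 counts, so these calls are no test of the diet. Of the 6 other miRNA often found in milk, miR-26a, miR-26b, miR-200c, miR-21-5p, miR-99a-5p and miR-148a, edgeR called 0 of 6, with log2 fold changes from -1.18 for miR-21-5p to 0.04 for miR-200c. Of this set miR-148a was sparse, with 72 counts over all cows, while miR-26a had 15016.

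**Figure D5:**
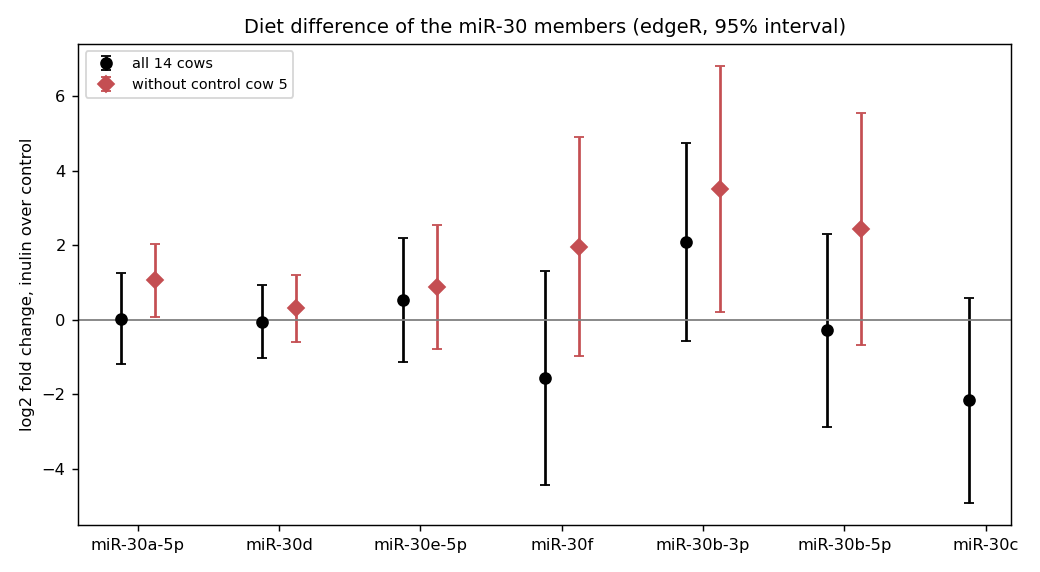
Log2 fold change of inulin over control for each miR-30 member from edgeR, with 95% intervals, for all 14 cows (circles) and without control cow 5 (diamonds). With all cows every interval includes 0. Without control cow 5 those of miR-30a-5p and miR-30b-3p lie above 0 before adjustment, and miR-30c could not be fitted. This cow was left out for its miR-30 counts.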

How the data were processed

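The milk sEVs of 14 cows, 7 per group, were analysed by small RNA sequencing. The authors trimmed adapters, kept reads of defined length and quality, annotated them against Rfam and miRBase, and obtained the deposited counts, whole read counts for each miRNA/precursor, with miRDeep2 without normalization. The build in the submitters' processing notes was ARS-UCD1.2. The deposited rpm values differed from the counts scaled to each cow's sum by at most 0.005. The table also lists the sum of the counts over the cows and, in another unit, the length in nt of each mature miRNA, as deposited. All results start from the counts, and 0 columns remained without a cow.

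The members were the lines named miR-30 with a letter from a to f, with any arm. Members and lists of other miRNA were chosen with earlier results of these data known. All members were named, and of the other miRNA the 5 whose level ran most like the summed level of the family over the 14 cows (Spearman's rho, among miRNA with counts in every cow), together with fixed lists of milk and cell type miRNA. Precursors were matched by name in the RefSeq table of ARS-UCD2.0, from which no positions are given because the builds differ.

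Levels are CPM, counts scaled to the sum of the cow. Differences between groups were tested in edgeR 4.0.16, by its quasi-likelihood test (R 4.3.3), with TMM normalization and pairs with at least 10 counts, adjusted by the Benjamini-Hochberg method. Pairs were called at an unadjusted P < 0.05 and |log2FC| > 1. Alternatives were DESeq2 1.42.0, limma-voom (limma 3.58.1), other scalings and filters, 1 precursor per mature miRNA, leaving out each cow, and a block for the cow number. Single values were compared with exact permutation tests. Co-variation used log2 CPM with TMM and a prior count of 2, and 100000 permutations. Intervals for a share are 95% Wilson intervals, and a count of 0 was taken to allow 3 counts. Both cover counting error only. Totals ranged from 4165 to 415020 counts per cow. Levels and figures were made in Python 3.11.15 (SciPy 1.17.1, pandas 2.3.3, matplotlib 3.10.9).

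The fits were tested on simulated data.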

Additional observations from a re-analysis of the deposited data

Results flagged for a closer look

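Dixon's test at the 95% level was applied to 20 sets of 7 cows, to find a cow far from the rest of its group. For normally distributed values chance gives about 1 in 20 groups, and 10 were picked, 6 of them values of control cow 5. Several sets of the sparse members were mostly 0, where a few counts in 1 cow are enough to be picked. The 10 picks can therefore not be set against the number given by chance. The values of a cow share its library, so the picks do not count separately. Control cow 5 was picked for its total count of 415020 against 177212 in the next control cow, and for its miR-30 share of 1.47% against 0.493%. It was also picked for miR-30a-5p at 8694 CPM against 2505, for miR-30f at 248.2 CPM against 13.5, for miR-30b-5p at 142.2 CPM against 43.2, and for miR-30c at 115.7 CPM against 0. Control cow 2, the shallowest library, was picked for miR-30b-3p at 240.1 CPM, which is a single count. Inulin cow 3 was picked for miR-30e-5p at 1058 CPM and for miR-30f at 85.8 CPM, the latter 3 counts. Inulin cow 6 was picked for miR-30c at 15.1 CPM, which is 4 counts.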

How the results depend on the processing

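Depth limits the 4 sparse members most, since a count of 0 allows between 7.23 and 720.3 CPM, and the shallow libraries cannot show levels as low as those of miR-30c, miR-30f or either mir-30b arm in the deep ones. The number of pairs called, 19, was 9 with DESeq2, 3 with filterByExpr, 75 without a filter and 7 with the number of the cow as a replicate block, and 14 to 22 with each cow left out. The number of members called, 0, was 1 with limma-voom (miR-30b-3p) and 0 to 2 with each cow left out. The replicate block called no member, and 1 pair had an adjusted p under 0.05. The cows sharing a number are different animals, their deviations correlated between -0.33 and 0.256, and 0 of 7 correlated best with their own number. Among uncalled members the direction turned for miR-30d without a filter (0.089), with filterByExpr (0.040) and with the block (0.14), for miR-30f with DESeq2 (1.28) and the block (0.82), for miR-30b-5p with limma-voom (0.020), 1 precursor per mature miRNA (0.28) and the block (0.99), and for miR-30c with DESeq2 (0.13). The filterByExpr filter kept 3 members. The cause of these turns was not tested. With each cow left out the log2 fold changes ranged from -0.12 to 1.06 for miR-30a-5p, -0.18 to 0.30 for miR-30d, 0.13 to 0.90 for miR-30e-5p, -2.37 to 1.95 for miR-30f, 1.88 to 3.50 for miR-30b-3p, -0.72 to 2.43 for miR-30b-5p and -3.24 to -1.35 for miR-30c. The highest value came without control cow 5 for miR-30a-5p, miR-30d, miR-30f, miR-30b-3p and miR-30b-5p. With 1 precursor per mature miRNA the miR-30 shares were 0.835% for control and 0.867% for inulin, and without the let-7 miRNA and miR-1246 in the total the shares were 3.19% for control and 4.19% for inulin, since these alternatives reduce the total. With each cow left out the shares were 0.347% to 0.5677% and 0.499% to 0.535%. The couples of members kept 15 or 16 adjusted p under 0.05 with each cow left out, and the difference in the log2 ratio of miR-30a-5p to miR-30d was 0.23 to 0.66. The r of miR-30a-5p and miR-30d was 0.0702 without the 2 farthest cows, 0.770 within the control group and 0.339 within the inulin group. That of miR-30a-5p and miR-30e-5p was 0.188, 0.557 and 0.184, and that of miR-30d and miR-30e-5p was 0.153 without the 2 farthest cows and -0.28 within the inulin group. The total count or the total without let-7 and miR-1246 as the scaling and the prior count of 0.5 changed no call of these relations. With let-7 and miR-1246 left out of the total, r was higher, at 0.863, 0.752 and 0.866 for the 3 couples in this order.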
